A study of Saccharomyces cerevisiae with 8 samples.

Results

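The genes described here encode the yeast enzymes of glycolysis, alcoholic fermentation, acetaldehyde oxidation and glycerol metabolism. They were taken as the probe sets whose gene symbol in the platform annotation was one of 33 listed enzymes, and 32 of these genes, of 5449 genes read in the series, had a probe set. The glyceraldehyde 3-phosphate dehydrogenase gene TDH2 was not analysed here. Of the 32 genes, 30 passed a filter on dim signals and were tested with the rest of the genome, and ALD3 and GPD2, which did not pass it, are described from a fit without that filter.

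Glycolysis splits glucose into pyruvate, and yeast then removes carbon dioxide from pyruvate and reduces the resulting acetaldehyde to ethanol. When glucose runs out, cells take up the ethanol again and oxidise it through acetaldehyde and acetate to acetyl-CoA. Glycerol is made from a glycolytic intermediate as a redox sink and as a protectant against osmotic stress, and it can be returned to glycolysis by a kinase and a mitochondrial dehydrogenase. Many of these steps are carried out by several isoenzymes with separate genes, some of which are known to be kept off by glucose.

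RNA came from cultures of the budding yeast Saccharomyces cerevisiae of 3 strains, grown at 30 °C in 10 mL of rich medium (YPD) with 2% glucose until they were saturated overnight. The wild type (ESA1 SUP2) had 2 arrays. The ESA1 sup2- strain had 3 arrays and is called the sup2- strain here, and the esa1 sup2- strain had 3. ESA1 encodes the catalytic subunit of the NuA4 histone acetyltransferase, which is normally essential. Both mutant strains carry sup2-. The gene behind the name SUP2 is not given in the labels, nor is the strain background. Nothing in the labels ties the arrays of a strain to separate cultures, and p-values then cover only how far these samples spread, which may be technical. Each strain was also run on a fluidics station of its own (stations 1, 3 and 2 in the order given), so station and strain cannot be told apart.

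Signals are linear brightness values that had been scaled to a common trimmed mean on every array (500.2 to 500.3), and 5 µg of total RNA was labelled per array. A level is therefore relative to the rest of the RNA, and fewer cells with a transcript and less transcript per cell cannot be told apart in such bulk samples. The listed genes read between 76.7 and 9622, above the background bound of 8.23 to 12.4 on every array. ESA1 itself (YOR244W) read 1216 and 1067 in the wild type and 819, 894 and 877 in the sup2- strain. It read 1.19, 3.34 and 0.267, below the background bound on all 3 arrays of the esa1 sup2- strain (limma adjusted p = 6.2e-09 against the sup2- strain). Replicate 2 of the sup2- strain stood apart from the others of its strain, with an SD of log2 differences over all probe sets of 0.210 and 0.206 against 0.090 between replicates 1 and 3. The esa1 sup2- replicates differed from each other by SDs of 0.262, 0.271 and 0.323, and replicate 2 had the highest 18S ribosomal RNA 3′ control signal (2315, against 33.6 and 49.4). With so few arrays, their number sets the precision reached.

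Differences between strains were tested with limma on log2(signal + 121) over 4398 probe sets, and a gene is said to have risen or fallen where its Benjamini-Hochberg adjusted p was under 0.05. Log2 fold changes on this scale understate the change of dim genes, so ratios of mean signals are given beside some of them. Most of the genome moved between these strains, so counts are set against the share of all probe sets called the same way. The comparisons share arrays and are not independent of each other. A change given for the sup2- strain alone is against the wild type.

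In the sup2- strain against the wild type, 2 of the 30 genes rose (6.67%) and 8 fell (26.7%), against 28.5% of all probe sets called higher and 22.1% called lower. On the log2 scale none of the 30 was called and at least 2-fold higher and 1, PDC6, was at least 2-fold lower, against 3.21% and 1.39% of all probe sets. The median log2 change was -0.07 over the 30 genes and 0.01 over all probe sets. The share that fell was thus close to that of the genome, while the share that rose was below it. With quantile normalization all 8 falls were kept, and PGK1, ENO1 and PDC1 were called lower as well (limma adjusted p = 0.025, 0.030 and 0.0055). The 8 falls came down to 4 when wild-type replicate 2 was left out, without HXK1, PGI1, PFK2 and PYK2, and to 4 with scaling on poly-A controls, without HXK1, PGI1, PFK1 and PFK2.

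In the esa1 sup2- strain against the sup2- strain, 18 of the 30 genes rose (60%) and 8 fell (26.7%), against 31.8% called higher and 35.8% called lower among all probe sets. On the log2 scale 7 genes were called and at least 2-fold lower, and 1, HXK2, at least 2-fold higher. The shares of all probe sets were 6.68% and 3.71%. PDC6, called lower at 2.68-fold in mean signal, was not among the 7. The median log2 change was 0.28 over the 30 genes and -0.02 over all probe sets.

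In the esa1 sup2- strain against the wild type, 11 of the 30 genes rose (36.7%) and 9 fell (30%), against 37.9% and 36.6% of all probe sets. These shares were near those of the genome. On the log2 scale 2 genes, HXK2 and ALD5, were called and at least 2-fold higher, and 8 at least 2-fold lower. The shares of all probe sets were 11.9% and 11.5%. PDC5, called higher at 2.02 times the wild-type mean signal, was not among the 2. With quantile normalization GLK1, TDH1, GPM1 and ALD6 were called lower as well, and ADH5 was not called. The rise count depended on the wild-type arrays, with 7 genes higher without wild-type replicate 1 and 16 without wild-type replicate 2.

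**Figure D1:**
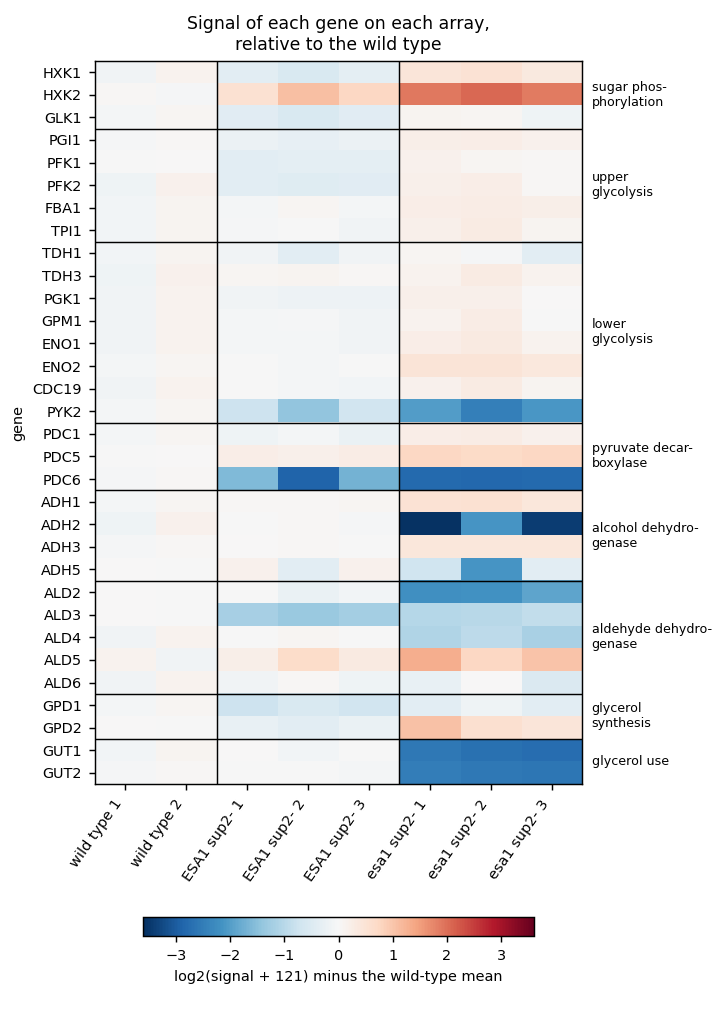
Colour gives log2(signal + 121) of each gene (rows, grouped by role) on each of the 8 arrays (columns) minus the mean of the 2 wild-type arrays, with red above and blue below the wild type. HXK2 is the reddest row in the esa1 sup2- strain, ADH2, GUT1, GUT2, PYK2, PDC6 and ALD2 are the bluest there, and PYK2, PDC6 and ALD3 are already blue in the sup2- strain.

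Glucose enters glycolysis through 3 kinases, the hexokinases HXK1 and HXK2 and the glucokinase GLK1. HXK2 (YGL253W, chromosome VII), the hexokinase that predominates during growth on glucose and that also takes part in glucose repression, read 1315 and 1230 in the wild type, 1932, 2819 and 2197 in the sup2- strain and 5085, 5662 and 4945 in the esa1 sup2- strain. The 3 strains did not overlap, and the signal stepped up from the wild type through the sup2- to the esa1 sup2- strain. Its mean signal was 1.82 times the wild-type level in the sup2- strain (log2 fold change 0.79, SE 0.14, limma adjusted p = 0.0017). The esa1 sup2- strain read 2.26 times the sup2- level (log2 fold change 1.15, SE 0.12, limma adjusted p = 6.0e-05) and stood at 4.11 times the wild type (log2 fold change 1.94, limma adjusted p = 2.7e-06).

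HXK1 (YFR053C, chromosome VI), the hexokinase known to be favoured on carbon sources other than glucose, followed another course. It read 4216 and 4969 in the wild type, 3496, 3070 and 3573 in the sup2- strain and 6176, 6576 and 5858 in the esa1 sup2- strain. The sup2- strain was lowest and the esa1 sup2- strain highest, with no overlap between strains. HXK1 fell by 0.43 on the log2 scale in the sup2- strain (SE 0.10, limma adjusted p = 0.0060), a call that was lost without wild-type replicate 2 (log2 fold change -0.31, adjusted p = 0.067). In the esa1 sup2- strain it rose by 0.85 over the sup2- strain (SE 0.09, limma adjusted p = 4.0e-05) and by 0.43 over the wild type (adjusted p = 0.0031).

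GLK1 (YCL040W, chromosome III), the glucokinase, read 5270 and 5856 in the wild type, 4191, 3757 and 4153 in the sup2- strain and 5969, 5800 and 4977 in the esa1 sup2- strain. The sup2- strain stood apart, below both other strains. GLK1 fell by 0.45 on the log2 scale in the sup2- strain (limma adjusted p = 0.0042) and rose by 0.45 from there in the esa1 sup2- strain (limma adjusted p = 0.0013). The esa1 sup2- strain differed from the wild type by 0.00 (95% interval -0.21 to 0.22, limma adjusted p = 0.98). With quantile normalization GLK1 was called lower there than in the wild type (log2 fold change -0.23, limma adjusted p = 0.026).

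The difference between isoenzymes was tested directly, as the difference of their log2 values on each array, in the same limma fit with the pairs added to the probe sets. Levels of different probe sets were not set against each other. Relative to HXK2, HXK1 fell by 1.22 on the log2 scale in the sup2- strain (95% interval -1.66 to -0.77, limma adjusted p = 0.0011). HXK2 likewise rose relative to GLK1 by 1.24 (limma adjusted p = 7.8e-04), while HXK1 and GLK1 differed in response by 0.02 (95% interval -0.18 to 0.23, adjusted p = 0.85). From the sup2- to the esa1 sup2- strain the response of HXK1 and HXK2 differed by -0.29 (95% interval -0.69 to 0.10, adjusted p = 0.16), which was called without sup2- replicate 2 (-0.50, adjusted p = 0.0078), the array on which HXK2 was highest among the 3. Both HXK1 and HXK2 rose relative to GLK1 in that comparison, by 0.40 (adjusted p = 0.0022, and 0.065 with scaling on poly-A controls) and 0.69 (adjusted p = 0.0056).

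The upper part of glycolysis, from glucose 6-phosphate to the triose phosphates, rose from the sup2- to the esa1 sup2- strain: 5 of 5 genes were called higher, by log2 fold changes of 0.25 to 0.56, against 31.8% of all probe sets. With quantile normalization 3 of the 5 stayed called, while FBA1 came to -0.0016 and TPI1 to 0.030 (adjusted p = 0.98 and 0.26). In the sup2- strain against the wild type 3 of the 5 fell, against 22.1% of all probe sets, and the other 2 were not called.

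PFK1 (YGR240C, chromosome VII), the alpha subunit of phosphofructokinase, the main control point of glycolysis, read 4311 and 4358 in the wild type, 3272, 3371 and 3398 in the sup2- strain and 4852, 4547 and 4425 in the esa1 sup2- strain. PFK2 (YMR205C, chromosome XIII), its beta subunit, read 4320 and 5401, then 3702, 3531 and 3646, then 5542, 5702 and 5024 in the same order. Every sup2- array lay below all arrays of the other strains for both subunits. In the sup2- strain PFK1 fell by 0.36 (SE 0.07, limma adjusted p = 0.0020) and PFK2 by 0.40 (SE 0.10, limma adjusted p = 0.0086) on the log2 scale, the second lost when wild-type replicate 2 was left out (log2 fold change -0.25, adjusted p = 0.086). They rose by 0.45 (adjusted p = 1.7e-04) and 0.56 (adjusted p = 4.8e-04) in the esa1 sup2- over the sup2- strain, and neither was called against the wild type (adjusted p = 0.26 and 0.17). No difference in response between the subunits was called, with values of 0.04, -0.12 and -0.08 in the 3 comparisons, with 95% intervals of -0.21 to 0.29, -0.34 to 0.11 and -0.33 to 0.18.

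PGI1 (YBR196C, chromosome II), the phosphoglucose isomerase, read 6134 and 6427 in the wild type, 5437, 5063 and 5435 in the sup2- strain and 7348, 7485 and 7018 in the esa1 sup2- strain. The strains did not overlap. It fell by 0.24 on the log2 scale in the sup2- strain (limma adjusted p = 0.012) and rose by 0.45 in the esa1 sup2- over the sup2- strain (limma adjusted p = 1.3e-04). The fall was lost when wild-type replicate 2 was left out (log2 fold change -0.20, adjusted p = 0.084), and the rise of 0.21 over the wild type (adjusted p = 0.012) was lost when wild-type replicate 1 was left out (log2 fold change 0.18, adjusted p = 0.084).

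The aldolase gene FBA1 and the triose phosphate isomerase gene TPI1 differed from the wild type in the sup2- strain by -0.02 and -0.07 on the log2 scale, neither called, and their arrays overlapped. FBA1 read 7239, 7328 and 7059 in the esa1 sup2- strain, above 5812, 6438 and 5722 in the sup2- strain, a log2 fold change of 0.26 (limma adjusted p = 0.0075). TPI1 read 8882, 9622 and 8360 against 7568, 7814 and 7152, a log2 fold change of 0.25 (limma adjusted p = 0.017). These were small rises of bright genes, and that of TPI1 was not called without sup2- replicate 3 (log2 fold change 0.21, adjusted p = 0.066).

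In the lower part of glycolysis, from the triose phosphates to pyruvate, 4 of 8 genes rose from the sup2- to the esa1 sup2- strain and 1, PYK2, fell, against 31.8% of all probe sets called higher and 35.8% called lower. With quantile normalization the rises of PGK1, ENO1 and CDC19 were lost and ENO2 alone among the 8 was called higher. Against the wild type PYK2 alone among the 8 was called in the sup2- strain, as lower (limma adjusted p = 0.0064). Of all probe sets, 28.5% were called higher and 22.1% lower there. With quantile normalization PGK1 and ENO1 were called lower as well (adjusted p = 0.025 and 0.030).

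ENO2 (YHR174W, chromosome VIII), the enolase known to be higher on glucose, read 5889 and 6595 in the wild type, 6134, 5885 and 6184 in the sup2- strain and 8725, 8647 and 8192 in the esa1 sup2- strain. The esa1 sup2- strain stood above the other strains, which overlapped. The rise over the sup2- strain was 0.48 on the log2 scale (SE 0.06, limma adjusted p = 1.2e-04), 1.40 times the mean signal, and that over the wild type was 0.44 (adjusted p = 2.5e-04). ENO1 (YGR254W, chromosome VII), its near-identical isoenzyme, read 8334, 8760 and 7566 in the esa1 sup2- strain against 6633, 6592 and 6391 in the sup2- strain, a log2 fold change of 0.32 (limma adjusted p = 0.0061) that came to 0.071 with quantile normalization (adjusted p = 0.091). The responses of ENO1 and ENO2 differed by -0.16 in that comparison (95% interval -0.32 to 0.01, limma adjusted p = 0.080), which was called under 4 of 23 alternatives. Against the wild type the difference was -0.21 (adjusted p = 0.038), a call lost under 11 of 23 alternatives.

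PGK1, the phosphoglycerate kinase gene, read 6891, 6619 and 6644 in the sup2- strain and 8694, 8568 and 7651 in the esa1 sup2- strain, a log2 fold change of 0.30 (limma adjusted p = 0.0079). It came to 0.056 with quantile normalization (adjusted p = 0.33) and was also lost with both mutant arrays numbered 2 left out (0.27, adjusted p = 0.056), a setting chosen after seeing the data. CDC19 (YAL038W, chromosome I), the main pyruvate kinase, read 7489, 7208 and 7068 against 8467, 9213 and 8021, a log2 fold change of 0.23 (limma adjusted p = 0.021). The CDC19 rise was not called without sup2- replicate 2 (0.23, adjusted p = 0.056), sup2- replicate 3 (0.22, adjusted p = 0.069) or esa1 sup2- replicate 2 (0.18, adjusted p = 0.058), and it came to -0.0028 with quantile normalization.

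GPM1, the phosphoglycerate mutase gene, differed by 0.21 between the esa1 sup2- and sup2- strains (limma adjusted p = 0.057), with every esa1 sup2- array above every sup2- array. It passed the threshold without wild-type replicate 1 (adjusted p = 0.040), wild-type replicate 2 (adjusted p = 0.040) or esa1 sup2- replicate 3 (adjusted p = 0.019), with scaling on poly-A controls, with median centring, with the compared strains fitted alone and with the replicate block. With quantile normalization its value was -0.026, not called. The glyceraldehyde 3-phosphate dehydrogenase genes TDH1, known as the stationary-phase isoenzyme, and TDH3, the main one, differed by 0.10 and 0.11 (adjusted p = 0.49 and 0.30). With quantile normalization TDH3 came out lower in the esa1 sup2- strain in that comparison (log2 fold change -0.15, adjusted p = 0.014), and with scaling on poly-A controls it was called higher (0.32, adjusted p = 0.031). TDH1 read 7198 and 8291 in the wild type, 7101, 5872 and 7048 in the sup2- strain and 8141, 7536 and 5922 in the esa1 sup2- strain. Control probe sets along the TDH1 transcript gave ratios of 3′ to 5′ signal between 1.07 and 1.22 on all 8 arrays. The same ratio was 1.25 to 1.58 for ACT1 and 0.75 to 0.89 for RIP1. It was 2.58 to 3.43 for SPT15, 2.52 to 3.78 for WBP1 and 5.84 to 8.03 for SRB4. For SPT15, WBP1 and SRB4 every sup2- array lay above both wild-type arrays. Whether this bears on the signals was not tested.

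PYK2 (YOR347C, chromosome XV), a second pyruvate kinase known to be repressed by glucose, fell stepwise. It read 922 and 1017 in the wild type, 535, 287 and 553 in the sup2- strain and 149, 76.7 and 133 in the esa1 sup2- strain. Each step was downward with no overlap between strains, and replicate 2 was the lowest array of both mutant strains. The esa1 sup2- strain was 8.12-fold below the wild type in mean signal (log2 fold change -2.19, SE 0.22, limma adjusted p = 1.9e-05) and 3.84-fold below the sup2- strain (log2 fold change -1.25, SE 0.19, limma adjusted p = 4.8e-04). The sup2- strain was 2.12-fold below the wild type (log2 fold change -0.95, adjusted p = 0.0064), which was lost when wild-type replicate 2 was left out (log2 fold change -0.88, adjusted p = 0.052). Relative to CDC19, PYK2 fell by 0.90, 1.48 and 2.37 on the log2 scale in the sup2- strain against the wild type, in the esa1 sup2- strain against the sup2- strain, and in the esa1 sup2- strain against the wild type (adjusted p = 0.015, 3.8e-04 and 2.7e-05). The first of these was not called without wild-type replicate 1 (-0.84) or 2 (-0.95).

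**Figure D2:**
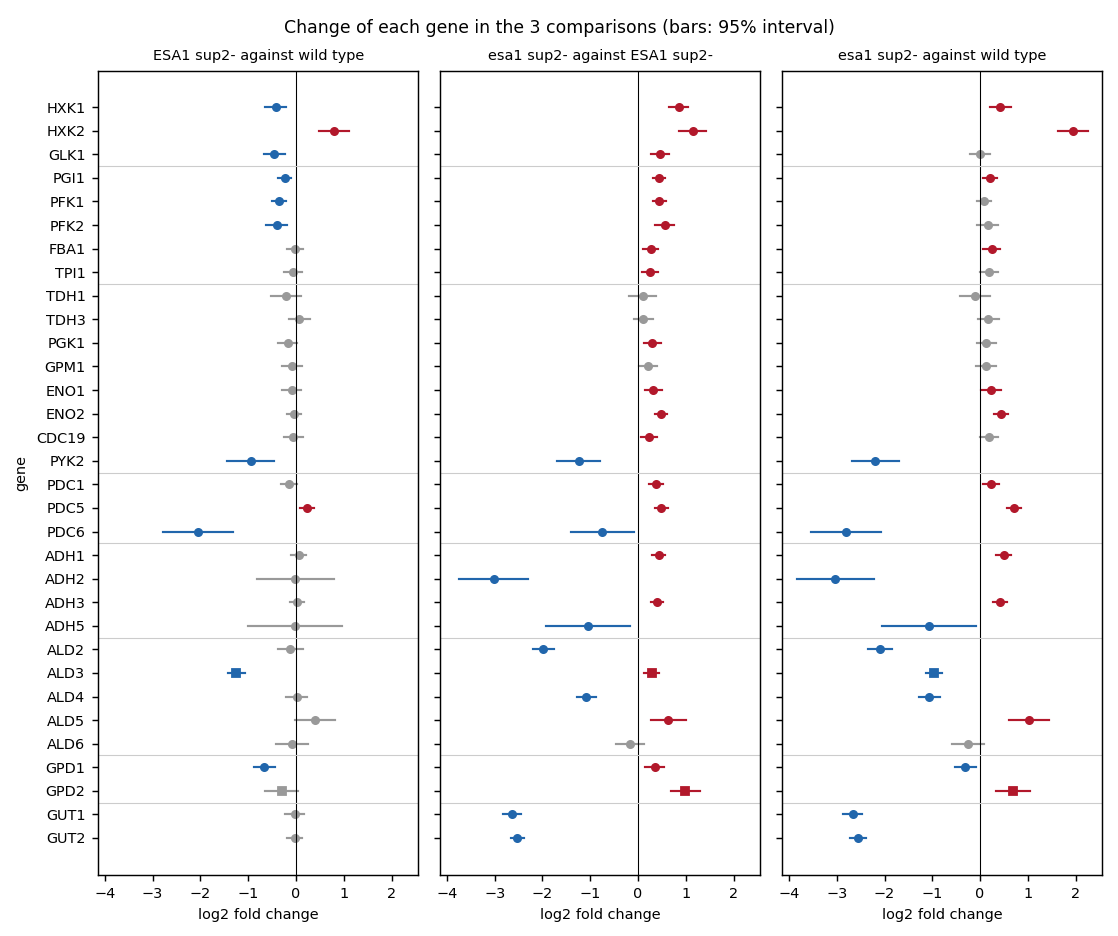
Points give the log2 fold change of each gene in the 3 comparisons and bars its 95% interval, with red for rises, blue for falls and grey for genes that were not called. Squares mark ALD3 and GPD2, from the fit without the dim filter. In the middle panel most glycolytic genes sit between 0.2 and 0.6 while ADH2 (-3.02), GUT1 (-2.64) and GUT2 (-2.53) lie far to the left.

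Rises in the esa1 sup2- strain were common among bright genes of any function. Among 201 other genes with a mean signal of at least 5000, 73.1% rose from the sup2- to the esa1 sup2- strain with a median log2 change of 0.29, and among the 14 genes described here of that brightness 64.3% rose with a median of 0.26. The highest signal on an array was 8694 to 10839, near the level of the brightest glycolytic genes. Whether brightness had a part in these rises was not tested. Their size depended on the normalization: with quantile normalization 13 of the 30 genes rose, and GLK1 (0.28), PGI1 (0.19), ENO2 (0.24), PDC1 (0.11) and ADH1 (0.18) stayed called at smaller log2 fold changes. In the sup2- strain against the wild type the shares were further apart, a difference that was not tested: 47.3% of the other bright genes rose (median 0.20), and none of the 14 did (median -0.06). Against the wild type the esa1 sup2- strain had 70.6% of the other bright genes higher (median 0.48) and 42.9% of the 14 (median 0.18).

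Pyruvate decarboxylase, which turns pyruvate into acetaldehyde, is encoded by PDC1, the main gene, and by PDC5 and PDC6. PDC6 (YGR087C, chromosome VII), a minor isoenzyme known to be induced when sulfur is scarce, read 1476 and 1571 in the wild type, 427, 100 and 388 in the sup2- strain and 115, 110 and 117 in the esa1 sup2- strain. The wild type was far above both mutants, while sup2- replicate 2 fell below all esa1 sup2- arrays. PDC6 fell 4.99-fold in mean signal in the sup2- strain (log2 fold change -2.06, SE 0.32, limma adjusted p = 9.4e-04) and stood 13.4-fold below the wild type in the esa1 sup2- strain (log2 fold change -2.81, SE 0.32, limma adjusted p = 5.0e-05). The further fall from the sup2- to the esa1 sup2- strain (log2 fold change -0.75, adjusted p = 0.045) was kept in 10 of 22 alternatives and was called in 1 of the 8 fits that left out an array, the one without sup2- replicate 2.

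PDC1 (YLR044C, chromosome XII) read 5817 and 6507 in the wild type, 5497, 5884 and 5234 in the sup2- strain and 7269, 7460 and 6920 in the esa1 sup2- strain. PDC5 (YLR134W, chromosome XII), known to be raised when PDC1 is lost, was dim at 201 and 207, then 260, 250 and 272, then 419, 400 and 421. Both were highest in the esa1 sup2- strain, and the PDC5 signal stepped up in each strain without overlap. From the sup2- to the esa1 sup2- strain PDC1 rose by 0.38 (SE 0.07, limma adjusted p = 0.0010) and PDC5 by 0.49 (SE 0.06, limma adjusted p = 1.1e-04) on the log2 scale, a difference in response of -0.11 (95% interval -0.35 to 0.13) that was called with quantile normalization (-0.57, adjusted p = 8.1e-04). PDC5 also rose in the sup2- strain against the wild type (log2 fold change 0.23, adjusted p = 0.017). That call was lost without wild-type replicate 1 (0.22), wild-type replicate 2 (0.24) or sup2- replicate 3 (0.21), with quantile normalization (0.12), with scaling on poly-A controls (0.23) and with the replicate block (0.22). PDC6 fell relative to both partners in every comparison, for example by 1.91 and 2.29 relative to PDC1 and PDC5 in the sup2- strain (adjusted p = 0.0027 and 5.2e-04). In the esa1 sup2- over the sup2- strain these values were -1.13 and -1.24, the first not called without sup2- replicate 1 (-0.89) or 3 (-0.90) or with quantile normalization (-0.66).

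Of the alcohol dehydrogenases none was called in the sup2- strain against the wild type, with log2 fold changes between -0.02 and 0.06. Of all probe sets, 28.5% were called higher and 22.1% lower there. All 4 were called in the esa1 sup2- strain against each of the other strains, 2 in each direction. The shares of all probe sets called higher and lower were 31.8% and 35.8% against the sup2- strain. Against the wild type they were 37.9% and 36.6%. ADH2 (YMR303C, chromosome XIII), which oxidises ethanol back to acetaldehyde and is a textbook case of glucose repression, read 7087 and 8647 in the wild type, 7727, 8054 and 7525 in the sup2- strain and 555, 1707 and 628 in the esa1 sup2- strain. All 3 esa1 sup2- arrays were far below those of the other strains, and replicate 2 was the highest of them. The mean signal was 8.07-fold lower than in the sup2- strain (log2 fold change -3.02, SE 0.32, limma adjusted p = 5.0e-05) and 8.17-fold lower than in the wild type (log2 fold change -3.03, limma adjusted p = 5.6e-05). Over 23 alternatives the log2 fold change against the sup2- strain ran from -3.47 to -2.58, and every one kept the call.

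ADH1 (YOL086C, chromosome XV), the cytosolic enzyme that forms ethanol during fermentation, read 4868 and 5305 in the wild type, 5253, 5257 and 5355 in the sup2- strain and 7294, 7538 and 6775 in the esa1 sup2- strain. ADH3 (YMR083W, chromosome XIII), the mitochondrial enzyme, read 3585 and 3878, then 3773, 3876 and 3681, then 5027, 5019 and 4981. Both were level in the wild type and the sup2- strain and higher on every esa1 sup2- array. ADH1 rose by 0.44 (SE 0.06, limma adjusted p = 2.3e-04) and ADH3 by 0.40 (SE 0.06, limma adjusted p = 2.9e-04) on the log2 scale over the sup2- strain. Their responses differed by -0.04 in that comparison (95% interval -0.21 to 0.13).

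Tested against its partners, ADH2 fell relative to ADH1 by 3.45 on the log2 scale (limma adjusted p = 1.8e-05), and its change relative to ADH3 was -3.41 (limma adjusted p = 2.6e-05), from the sup2- to the esa1 sup2- strain. ADH5 (YBR145W, chromosome II), a minor isoenzyme, read 802 and 784 in the wild type, 903, 585 and 897 in the sup2- strain and 440, 87.2 and 581 in the esa1 sup2- strain. The fall of ADH5 rested on uneven arrays, with replicate 2 the lowest in each mutant strain. Its log2 fold change from the sup2- to the esa1 sup2- strain was -1.06 (SE 0.39, limma adjusted p = 0.037), and the call was kept in 13 of 22 alternatives. It was lost without wild-type replicate 1 or 2 (adjusted p = 0.055 for each) and without sup2- replicate 1 (adjusted p = 0.10) or 3 (adjusted p = 0.096), and without esa1 sup2- replicate 2 it was called at a smaller value (-0.53, adjusted p = 0.029). Against the wild type (log2 fold change -1.07, adjusted p = 0.048) it was kept in 10 of 22.

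**Figure D3:**
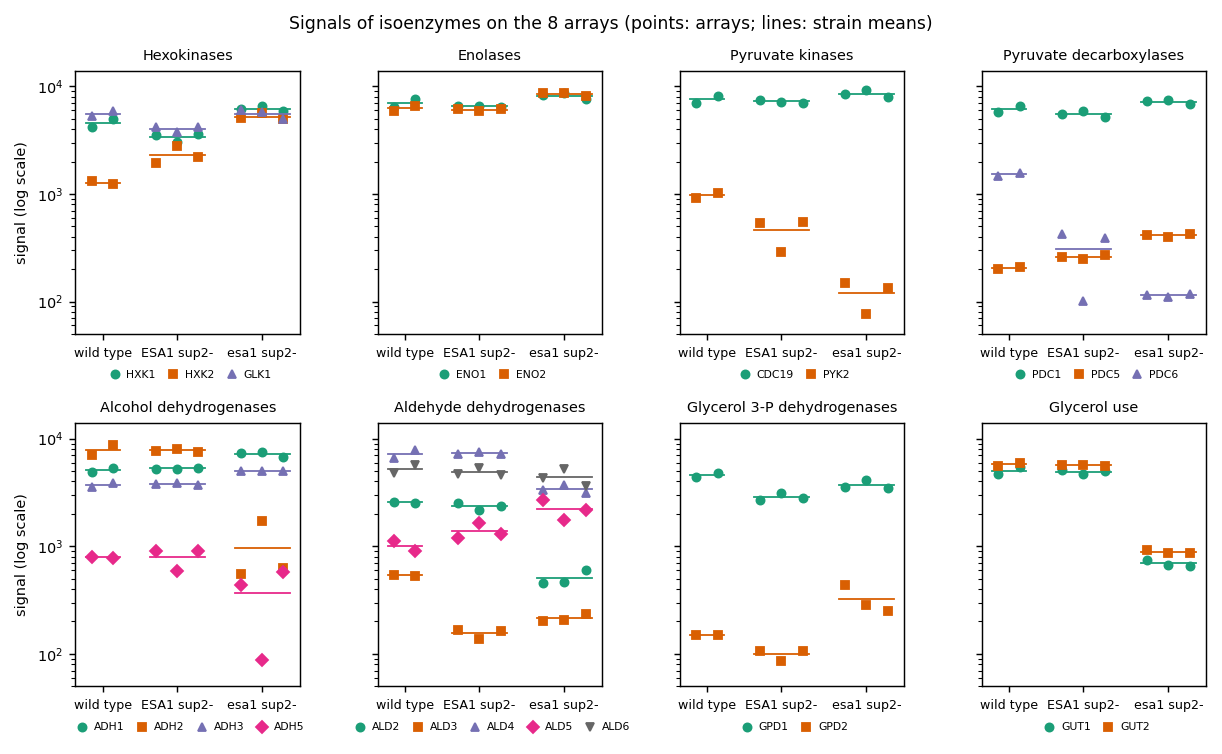
Each panel shows the signal of the isoenzymes of 1 step, or of the genes of glycerol use, on the 8 arrays on a log axis. Points stand for arrays and lines for the mean of each strain. Heights of different genes are not comparable, and the reader should follow each gene across strains: ADH2 drops to 555, 1707 and 628 while ADH1 and ADH3 rise, PYK2 and PDC6 step down from the wild type, and both glycerol use genes drop in the esa1 sup2- strain alone.

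Acetaldehyde is oxidised to acetate by aldehyde dehydrogenases, and 5 genes for such enzymes are described here. Their courses over the strains differed, though ALD2 and ALD4 both fell in the esa1 sup2- strain without being called in the sup2- strain. ALD4 (YOR374W, chromosome XV), the main mitochondrial enzyme, read 6583 and 7928 in the wild type, 7209, 7520 and 7163 in the sup2- strain and 3348, 3716 and 3122 in the esa1 sup2- strain. Every esa1 sup2- array was lower and the other strains overlapped. ALD4 fell 2.15-fold from the sup2- strain (log2 fold change -1.08, SE 0.09, limma adjusted p = 1.0e-05).

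ALD5 (YER073W, chromosome V), the other mitochondrial enzyme, went up instead. It read 1109 and 912 in the wild type, 1184, 1649 and 1290 in the sup2- strain and 2683, 1764 and 2184 in the esa1 sup2- strain. All esa1 sup2- arrays were above the others, with replicate 2 close to the highest sup2- array. ALD5 rose by 0.63 over the sup2- strain (SE 0.16, limma adjusted p = 0.0076) and by 1.03 over the wild type (SE 0.18, limma adjusted p = 7.5e-04) on the log2 scale. Relative to ALD5, ALD4 fell by 1.71 from the sup2- to the esa1 sup2- strain (95% interval -2.19 to -1.24, limma adjusted p = 1.2e-04).

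ALD6 (YPL061W, chromosome XVI), the main cytosolic enzyme, read 4769 and 5684 in the wild type, 4730, 5344 and 4639 in the sup2- strain and 4339, 5278 and 3609 in the esa1 sup2- strain. All strains overlapped, and no comparison called it (limma adjusted p = 0.65, 0.29 and 0.15 in the order above). Without esa1 sup2- replicate 2, the highest of its strain, ALD6 was called lower against the sup2- strain (log2 fold change -0.30, adjusted p = 0.042) and the wild type (-0.39, adjusted p = 0.020), and it was also called lower in both with quantile normalization (-0.32 and -0.43) and with scaling on hybridization controls (-0.28 and -0.27). ALD5 rose relative to ALD6 by 0.80 from the sup2- to the esa1 sup2- strain (adjusted p = 0.014), a call lost without esa1 sup2- replicate 1 (0.65), and ALD4 fell relative to ALD6 by 0.92 (adjusted p = 4.1e-05).

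ALD2 (YMR170C) and ALD3 (YMR169C) are neighbouring genes on chromosome XIII for cytosolic aldehyde dehydrogenases known to be induced by stress. ALD2 read 2574 and 2540 in the wild type, 2517, 2163 and 2381 in the sup2- strain and 460, 468 and 598 in the esa1 sup2- strain. ALD3 read 544 and 526, then 166, 138 and 162, then 204, 207 and 236. ALD2 thus dropped in the esa1 sup2- strain, while ALD3 was already low in the sup2- strain and a little less low in the esa1 sup2- strain. ALD2 fell 4.63-fold from the sup2- to the esa1 sup2- strain (log2 fold change -1.98, SE 0.10, limma adjusted p = 7.4e-07) and was not called in the sup2- strain against the wild type (log2 fold change -0.12, adjusted p = 0.42).

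In the fit without the dim filter, over 5498 probe sets, ALD3 fell 3.44-fold in the sup2- strain (log2 fold change -1.25, SE 0.08, limma adjusted p = 9.8e-06) and rose by 0.28 from there to the esa1 sup2- strain (adjusted p = 0.0060). The neighbours differed in response in both steps. ALD2 rose relative to ALD3 by 1.13 in the sup2- strain against the wild type (limma adjusted p = 7.2e-05) and fell relative to it by 2.26 from the sup2- to the esa1 sup2- strain (limma adjusted p = 4.3e-07).

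Glycerol 3-phosphate dehydrogenase, the first enzyme of glycerol synthesis, is encoded by GPD1, known for its induction by osmotic stress, and GPD2, known for its role when oxygen is lacking. GPD1 (YDL022W, chromosome IV) read 4443 and 4815 in the wild type, 2704, 3136 and 2819 in the sup2- strain and 3541, 4115 and 3493 in the esa1 sup2- strain. The sup2- strain was lowest and the esa1 sup2- strain lay between it and the wild type, with no overlap. GPD1 fell by 0.66 in the sup2- strain (SE 0.10, limma adjusted p = 6.4e-04) and rose by 0.35 from there in the esa1 sup2- strain (SE 0.09, limma adjusted p = 0.0061) on the log2 scale. The remaining difference of -0.31 between the esa1 sup2- strain and the wild type (adjusted p = 0.016) was lost when wild-type replicate 2 was left out (log2 fold change -0.25, adjusted p = 0.12), with median centring (-0.23, adjusted p = 0.082) and with scaling on poly-A controls (-0.084, adjusted p = 0.66).

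GPD2 (YOL059W, chromosome XV) was dim, at 150.8 and 150.3 in the wild type, 105, 86.2 and 107 in the sup2- strain and 441, 286 and 249 in the esa1 sup2- strain. Every esa1 sup2- array was above those of the other strains. The esa1 sup2- strain stood at 3.27 times the sup2- and 2.16 times the wild-type mean signal. In the fit without the dim filter GPD2 rose by 0.99 on the log2 scale over the sup2- strain (limma adjusted p = 2.8e-04), and by 0.69 over the wild type (limma adjusted p = 0.0030). The sup2- strain differed from the wild type by -0.30 (95% interval -0.65 to 0.05, adjusted p = 0.13). Relative to GPD2, GPD1 fell by 0.64 from the sup2- to the esa1 sup2- strain (adjusted p = 0.014) and by 1.003 in the esa1 sup2- strain against the wild type (adjusted p = 0.0020).

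Both genes of glycerol use fell steeply in the esa1 sup2- strain. GUT1 (YHL032C, chromosome VIII), the glycerol kinase, read 4694 and 5400 in the wild type, 5111, 4723 and 4973 in the sup2- strain and 749, 673 and 652 in the esa1 sup2- strain. GUT2 (YIL155C, chromosome IX), the mitochondrial glycerol 3-phosphate dehydrogenase, read 5603 and 5985, then 5736, 5744 and 5551, then 929, 871 and 859. In both, the wild type and the sup2- strain overlapped and the esa1 sup2- strain lay far below. From the sup2- to the esa1 sup2- strain GUT1 fell 7.14-fold (log2 fold change -2.64, SE 0.08, limma adjusted p = 3.1e-08) and GUT2 6.41-fold (log2 fold change -2.53, SE 0.06, limma adjusted p = 9.7e-09). The sup2- strain differed from the wild type by -0.03 in each, with 95% intervals of -0.23 to 0.18 and -0.19 to 0.13.

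Of 23 isoenzyme or subunit pairs, 19 could be tested among genes that passed the dim filter. Their responses differed in 6 pairs in the sup2- strain against the wild type, in 13 in the esa1 sup2- over the sup2- strain and in 16 in the esa1 sup2- strain against the wild type, at a limma adjusted p under 0.05. Among the pairs called from the sup2- to the esa1 sup2- strain the differences ran from 0.40 (HXK1 and GLK1) to 3.45 (ADH2 and ADH1) in size on the log2 scale. Since most probe sets were called in each comparison, unequal responses of 2 genes were common, and nothing particular to isoenzymes can be read from these counts. Whether RNA of one isoenzyme bound to probes of a near-identical partner, such as ENO1 and ENO2, was not tested.

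**Figure D4:**
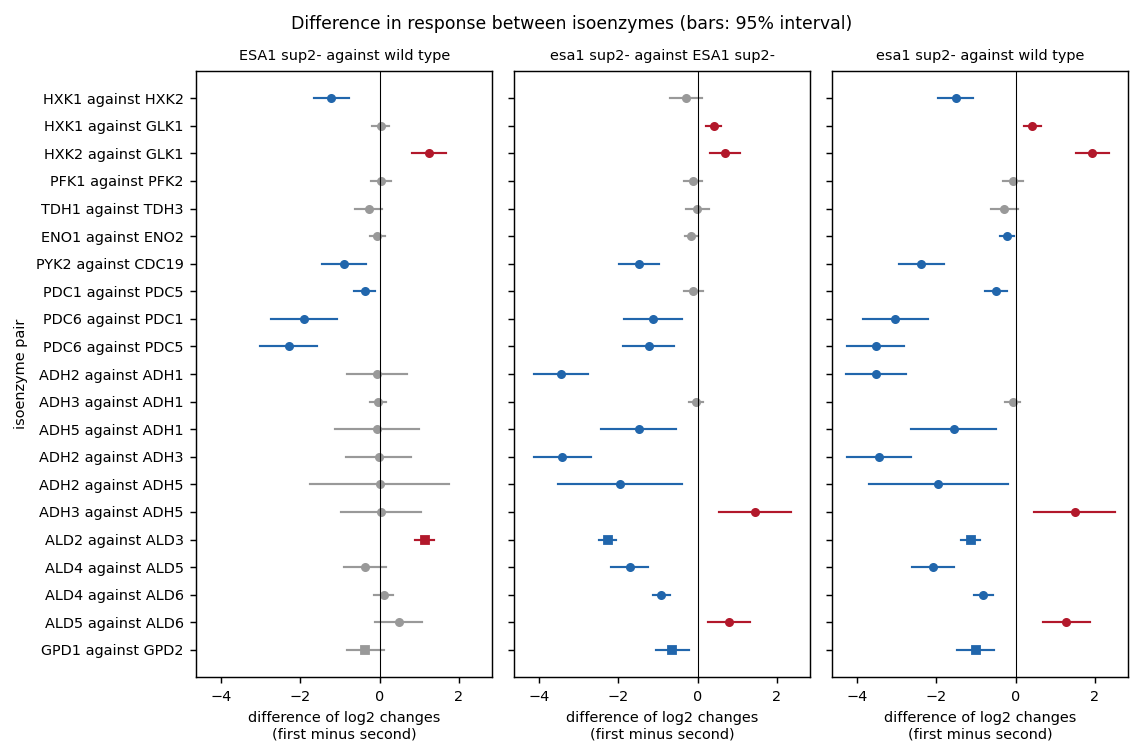
Points give the log2 change of the first isoenzyme minus that of the second in the 3 comparisons and bars the 95% interval, with red and blue for called differences and grey for the others. Squares mark the pairs with ALD3 or GPD2. In the middle panel ADH2 against ADH1 lies at -3.45, and the pairs of HXK1 and HXK2, PFK1 and PFK2, TDH1 and TDH3, ENO1 and ENO2, PDC1 and PDC5, and ADH3 and ADH1 are grey.

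A further 46 genes around these pathways were read for context, of which 44 had a probe set and 37 passed the dim filter. In the sup2- strain 3 rose (8.11%) and 16 fell (43.2%), from the sup2- to the esa1 sup2- strain 9 rose (24.3%) and 14 fell (37.8%), and against the wild type 12 rose (32.4%) and 18 fell (48.6%) in the esa1 sup2- strain. The shares of all probe sets called higher and lower were 28.5% and 22.1%, 31.8% and 35.8%, and 37.9% and 36.6% in the same order. The fall count in the sup2- strain depended on the wild-type arrays, with 9 without wild-type replicate 1 and 6 without wild-type replicate 2, and the rise count was 6 without sup2- replicate 2.

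The enzymes that make and break fructose 2,6-bisphosphate, an activator of phosphofructokinase, all changed in every comparison, 1 upward and 2 downward. PFK27, a kinase that makes it, read 89.7 and 88.4 in the wild type, 211, 136 and 205 in the sup2- strain and 635, 714 and 588 in the esa1 sup2- strain. Its fellow kinase PFK26 went from 1486 and 1513 over 1066, 1036 and 1107 down to 443, 433 and 562. PFK27 thus rose and PFK26 fell at each step. The mean PFK27 signal of the esa1 sup2- strain was 3.51 times that of the sup2- strain. From the sup2- to the esa1 sup2- strain the log2 fold changes of PFK27 and PFK26 were 1.34 (limma adjusted p = 1.1e-05) and -0.99 (limma adjusted p = 2.3e-05). FBP26, the phosphatase that breaks it down, fell by 0.55 in that comparison (adjusted p = 1.7e-04).

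Glycerol synthesis ends with the phosphatases GPP1 and GPP2, and both rose in the esa1 sup2- strain. GPP1 read 2468 and 2257 in the wild type, 1399, 934 and 1437 in the sup2- strain and 5679, 6864 and 5613 in the esa1 sup2- strain. GPP2 read 756 and 688, then 1182, 635 and 1151, then 4412, 4778 and 3830. Like GPD1, GPP1 was lowest in the sup2- strain, but its esa1 sup2- signal stood above the wild type. From the sup2- to the esa1 sup2- strain GPP1 rose by 2.18 (SE 0.15, limma adjusted p = 4.6e-06) and GPP2 by 2.04 (SE 0.19, limma adjusted p = 2.9e-05) on the log2 scale, and GPP1 had fallen by 0.87 in the sup2- strain (adjusted p = 0.0028). STL1, the proton symporter that takes up glycerol, fell instead, from 737 and 700 over 417, 234 and 425 to 44.1, 63.0 and 65.8 (log2 fold change from the sup2- to the esa1 sup2- strain -1.40, limma adjusted p = 6.2e-05). Its mean signal was 6.22-fold lower in the esa1 sup2- than in the sup2- strain.

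Among minor relatives of the enzymes, ADH6, an NADPH-dependent alcohol dehydrogenase, rose stepwise from 560 and 551 over 1976, 1767 and 2007 to 4003, 5118 and 4115. Its log2 fold changes were 1.59 in the sup2- strain against the wild type (limma adjusted p = 2.0e-05) and 1.15 in the esa1 sup2- over the sup2- strain (limma adjusted p = 2.0e-05). GPM2, a paralogue of the phosphoglycerate mutase gene, fell from a mean of 1393 in the wild type over 921 to 153, with log2 fold changes of -0.56 (adjusted p = 0.023) and -1.91 (adjusted p = 1.1e-05). ADH4 fell by 0.47 in the sup2- strain (adjusted p = 8.7e-04).

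Of 12 genes for pyruvate entry to mitochondria and acetyl-CoA formation, 8 fell (66.7%) and 1 rose (8.33%) from the sup2- to the esa1 sup2- strain, against 35.8% and 31.8% of all probe sets. ACS1, the acetyl-CoA synthetase used on non-fermentable carbon sources, read 6541 and 7699 in the wild type, 6969, 7160 and 6718 in the sup2- strain and 943, 562 and 681 in the esa1 sup2- strain (log2 fold change from the sup2- to the esa1 sup2- strain -3.08, SE 0.15, limma adjusted p = 5.0e-07). Its course was that of a level in the wild type and sup2- strain and a drop in the esa1 sup2- strain, as for ADH2, ALD4, GUT1 and GUT2. MPC3, a mitochondrial pyruvate carrier subunit, fell by 1.99 (limma adjusted p = 1.4e-05) and LPD1, the lipoamide dehydrogenase shared by pyruvate dehydrogenase and its relatives, by 0.81 (limma adjusted p = 1.6e-05). In the sup2- strain against the wild type 5 of the 12 fell (41.7%) and 1 rose (8.33%), against 22.1% and 28.5% of all probe sets. LPD1 fell by 0.32 (limma adjusted p = 0.0078) and LAT1 by 0.31 (limma adjusted p = 0.016). The 1 that rose was MPC2, another subunit of the mitochondrial pyruvate carrier, by 0.34 (limma adjusted p = 0.0080).

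Among 8 tested regulators, 3 rose (37.5%) and 1 fell (12.5%) from the sup2- to the esa1 sup2- strain, against 31.8% and 35.8% of all probe sets. ADR1, the activator of ADH2 and of genes for glycerol use, read 1676 and 1863 in the wild type, 1023, 1279 and 946 in the sup2- strain and 579, 390 and 410 in the esa1 sup2- strain. The strains did not overlap, and the log2 fold changes were -0.66 in the sup2- strain against the wild type (limma adjusted p = 0.0080) and -1.06 in the esa1 sup2- over the sup2- strain (limma adjusted p = 2.0e-04). In the sup2- strain against the wild type 3 of the 8 regulators fell (37.5%) and 0 rose, against 22.1% and 28.5% of all probe sets. Besides ADR1 these were GCR2 (-0.46, limma adjusted p = 7.6e-04) and TYE7 (-0.84, limma adjusted p = 0.031). HOG1, the kinase of the osmotic stress response, rose by 1.01 (adjusted p = 5.8e-06) and MIG1, a repressor that acts in glucose repression, by 0.81 (adjusted p = 0.0012) from the sup2- to the esa1 sup2- strain. MIG2, a relative of MIG1 that was dim in the wild type and the sup2- strain and is named after its values were seen, read 29.7 and 24.97 in the wild type, 51.5, 41.7 and 73.7 in the sup2- strain and 914, 931 and 840 in the esa1 sup2- strain. In the fit without the dim filter MIG2 rose by 2.53 on the log2 scale from the sup2- to the esa1 sup2- strain (SE 0.08, limma adjusted p = 5.5e-08). Its mean signal in the esa1 sup2- strain was 16.1 times that in the sup2- strain.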

How the data were processed

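Affymetrix yeast expression arrays of 8 RNA samples were used. The deposited values are linear signal intensities that the authors made, with GCOS and its MAS5 algorithm named in the submitters' processing notes, one value per probe set, scaled on each array to a common mean. Their versions are not given in the sources. Gene names came from the platform annotation.

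Signals were transformed to log2(signal + 121), the pseudocount being the 10th percentile of the signals of S. cerevisiae probe sets (120.9) rounded up. The dimmest 20% of probe sets by mean over all arrays were left out and all 8 arrays were fitted together with limma 3.58.1 (R 4.3.3), with an intensity trend in the prior variance and Benjamini-Hochberg adjustment over 4398 probe sets. For isoenzyme pairs, the per-array log2 difference divided by the square root of 2 was added to the table and the estimate scaled back. Ratios are ratios of mean signals. The steps were tested on simulated data. Figures were drawn with matplotlib 3.10.9.

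All listed enzymes are described. Of the genes around the pathways, the text names at most the 3 called genes with the smallest p in each list and comparison, and MIG2. The enzymes, pairs and lists were chosen with earlier results of these data known. Samples with the same replicate number did not clearly deviate together (correlations of -0.093 to 0.142), so they were not treated as paired. With 2 or 3 arrays per strain this check could miss a weak pairing. Alternatives covered the pseudocount, filter, normalization, control-based scaling, the strains fitted, a replicate block and each array left out. DNA and protein sequences were not used here.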

Additional observations from a re-analysis of the deposited data

How the results depend on the processing

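With quantile normalization some log2 fold changes crossed 0. Against the sup2- strain, the esa1 sup2- strain then had FBA1 at -0.0016, TDH3 at -0.15, CDC19 at -0.0028 and GPM1 at -0.026, and TPI1, PGK1 and ENO1 lost their calls, and against the wild type GLK1 at -0.23, PGI1 at -0.084, FBA1 at -0.048, GPM1 at -0.10, ENO1 at -0.042 and PDC1 at -0.070; the cause was not tested. Of these, GLK1 and GPM1 were called lower in the esa1 sup2- strain than in the wild type (limma adjusted p = 0.026 and 0.030). So were TDH1 (-0.36) and ALD6 (-0.43), while ADH5 lost its call. Of the 30 enzyme genes, the sup2- strain had 2 higher and 8 lower than the wild type. The 2 became 1 with quantile normalization, poly-A control scaling, the dimmest 50% left out or the replicate block, 4 with hybridization control scaling and 1 to 2 with an array left out; the 8 became 4 with poly-A control scaling and 4 to 9 with an array left out. Against the wild type, the 8 lower in the sup2- strain were all kept with quantile normalization, and PGK1, ENO1 and PDC1 joined them. From the sup2- to the esa1 sup2- strain the 8 lower became 5 without the dimmest 50%, where fewer genes were tested. Over the wild type the 11 higher in the esa1 sup2- strain became 7 with quantile normalization, 17 with poly-A control scaling and 7 to 16 with an array left out. Of the genes around the pathways, the 3 higher in the sup2- strain became 5 with hybridization control scaling, 6 with no filter or with the compared strains fitted alone, 7 with both mutant arrays numbered 2 left out (chosen after seeing the data) and 2 to 6 with an array left out, and the 16 lower became 5, 7 and 10 with poly-A control scaling, hybridization control scaling and the dimmest 50% left out, and 6 to 16 with an array left out. For these genes the 14 lower from the sup2- to the esa1 sup2- strain became 9 and the 18 lower than the wild type 11 with poly-A control scaling, and the 12 higher than the wild type became 7 without the dimmest 50%. The pairs called (6, 13 and 16) became 2, 7 and 9 without the dimmest 50%, where fewer were tested, and 4 to 7, 11 to 14 and 11 to 16 with an array left out. With the replicate block they were 5, 14 and 16, and the enzyme genes called higher 1, 19 and 15. Scaling also moved the median of all genes: from the sup2- to the esa1 sup2- strain by 0.16 with poly-A controls and by -0.12 with hybridization controls, and the share of calls that were higher went from 47.0% to 67.1% with poly-A controls and 60% with median centring (median shift 0.11). For the esa1 sup2- strain over the wild type that share went from 50.9% to 65.2% with poly-A controls, and for the sup2- strain over the wild type from 56.3% to 70.3% with hybridization controls. Low signals limit PDC5, GPD2 and ALD3, and also PYK2, PDC6 and ADH5 in the esa1 sup2- strain, and the pseudocount shrinks their changes. Over the alternatives, the PYK2 log2 fold change of the esa1 sup2- strain against the wild type ran from -3.06 to -1.25. That of PDC6 ran from -3.73 to -1.72.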
